A study of Mus musculus with 12 samples.

Results

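The transcripts of 10 immediate early and AP-1 genes (Fos, Fosb, Fosl2, Jun, Junb, Jund, Egr1, Ier2, Ier3, and Dusp1) were followed in mouse myeloid progenitors before and during differentiation. They were taken by symbol from a deposited table of 23309 genes, and all 10 were among the 11516 tested genes, those that reached 1 FPKM in 2 or more of the 12 libraries. The cells were CD117+ bone marrow progenitors of wild-type mice or of HMGN1-OE mice, a C57BL/6 line with a human HMGN1 transgene, and all were immortalized with a retrovirus for HoxB8 fused to the estrogen receptor. Both genotypes were grown in IL-3. Estradiol (E2) holds such cells as immature progenitors, and polyA RNA was sequenced at 0, 36, and 96 h after E2 withdrawal, with 2 biological replicates in each of 6 groups. The table does not name the replicate of a library, so the libraries of a group are called a and b here, and a letter links nothing across groups. Ages of the mice, the promoter of the transgene, and whether a culture was clonal are not given in the sources used here. The human transgene was not analysed here, so the genotype labels were not checked against it.

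Immediate early genes are switched on within minutes of a growth factor, cytokine, or stress signal without new protein synthesis, largely through MAP kinases that act on factors already bound at their promoters. Fos and Jun family proteins pair through leucine zippers into AP-1, which binds DNA in many combinations with different activities. In myeloid cells AP-1 and Egr factors have known roles in monocyte and macrophage differentiation and in the activation of mature phagocytes, and their transcripts decay quickly, so a steady-state level reflects recent transcription.

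FPKM counts fragments per transcript length and library size. The values had been normalized to ERCC RNAs that were added to the RNA of a counted number of cells, so they stand closer to RNA per cell than to a share of the RNA. Fewer cells of a type and less RNA per cell cannot be told apart in such bulk samples. On the log2(FPKM + 1) scale the median of the tested genes was between 3.91 and 4.97 in the libraries of 0 and 36 h and between 2.02 and 3.06 at 96 h. Between 0 and 96 h the median change of all tested genes was therefore -1.75 in wild-type cells and, in HMGN1-OE cells, -1.28, and each change below is to be read beside it. Library b of wild-type cells at 36 h stood apart from the other libraries of that time. Its level of Flt3, a receptor of early progenitors, was 67.0 FPKM, against 4.10 to 9.31 FPKM in the other 36 h libraries and 47.5 to 82.2 FPKM at 0 h. Tests of the members that used this library are also given without it. The summed progenitor markers (7 genes) lay between 745 and 1899 FPKM at 0 and 36 h and between 22.3 and 54.9 FPKM at 96 h. The neutrophil markers without S100a9 (17 genes) lay between 5659 and 23091 FPKM early and between 40783 and 101973 FPKM at 96 h. Most of the late sum was S100a8, at 29366 to 83718 FPKM. Not all of the list rose, and Mpo went from 540 to 7066 FPKM early to 13.5 to 406 FPKM at 96 h. S100a9 was left out because it was listed at 0.0511 FPKM in library a of wild-type cells at 96 h and at 26546 FPKM or more in the other libraries of that time.

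RefSeq promoter windows (GRCm38.p6, from 250 bases before to 50 bases after the start site) were on hand for 8 of the 10 genes, and Egr1 and Ier2 had no entry. These 4 are shown because the first 3 belong to the genes whose 96 h libraries all lay above the earlier ones, and Junb to a gene without that pattern. The windows are chr12:85473640-85473939 on the plus strand for Fos, chr7:19309996-19310295 on the minus strand for Fosb, chr17:26508423-26508722 on the minus strand for Dusp1, and chr8:84978699-84978998 on the minus strand for Junb. Capitals mark the searched motifs.
Fos: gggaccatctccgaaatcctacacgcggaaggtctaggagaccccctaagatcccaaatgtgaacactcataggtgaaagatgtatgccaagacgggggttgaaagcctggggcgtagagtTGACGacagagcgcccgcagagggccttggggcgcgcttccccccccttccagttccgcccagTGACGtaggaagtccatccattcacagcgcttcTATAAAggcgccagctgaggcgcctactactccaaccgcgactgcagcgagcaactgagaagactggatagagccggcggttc
Fosb: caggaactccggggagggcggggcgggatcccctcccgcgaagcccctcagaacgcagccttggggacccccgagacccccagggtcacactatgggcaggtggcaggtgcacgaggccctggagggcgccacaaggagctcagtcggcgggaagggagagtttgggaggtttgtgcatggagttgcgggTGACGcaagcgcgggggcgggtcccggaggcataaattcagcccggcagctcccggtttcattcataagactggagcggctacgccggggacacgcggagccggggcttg
Dusp1: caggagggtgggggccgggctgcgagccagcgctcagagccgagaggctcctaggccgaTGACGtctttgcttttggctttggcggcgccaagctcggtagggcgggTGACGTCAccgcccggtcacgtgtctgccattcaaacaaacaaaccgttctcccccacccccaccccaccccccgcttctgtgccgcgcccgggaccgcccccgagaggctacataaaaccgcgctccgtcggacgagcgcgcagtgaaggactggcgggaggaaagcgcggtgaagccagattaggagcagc
Junb: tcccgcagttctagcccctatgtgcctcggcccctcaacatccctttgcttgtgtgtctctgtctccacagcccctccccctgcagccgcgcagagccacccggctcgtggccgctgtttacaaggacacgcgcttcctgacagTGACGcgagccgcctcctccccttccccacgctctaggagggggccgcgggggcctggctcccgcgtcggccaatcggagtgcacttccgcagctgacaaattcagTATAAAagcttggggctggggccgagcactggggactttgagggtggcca

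The motif TGACG, the core of the cyclic AMP response element TGACGTCA and searched on both strands, was in 4 of the 8 windows (Fos, Fosb, Junb, and Dusp1) and in 20.8% of 32851 windows in the reference. The whole element, which contains the core, was in the Dusp1 window at positions -143 to -136 from the start site and in 1.79% of all windows. In Fos the core lay at positions -129 to -125 and -66 to -62, in Fosb at -60 to -56, and in Junb at -106 to -102. A TATA box (TATAAA, both strands) was in the Fos window at -33 to -28 and in the Junb window at positions 1 to 6, and in 13.6% of all windows. Neither the TPA response element (TGANTCA, 7.81% of all windows) nor a CArG box (1.63%) had a match in the 8 windows. Only exact matches within 250 bases before and 50 bases after the start site were sought, and Egr1 and Ier2 had no window. Sites further upstream and variants of a motif would be missed, so no match here does not mean that a gene lacks the element. These matches describe letters in a window and were not tested for binding.

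Among the Fos family, Fos and Fosb stood apart at 96 h. Fos encodes the prototype partner of Jun proteins. In wild-type cells its level was 2.45 and 8.90 FPKM at 0 h, 9.71 and 2.79 FPKM at 36 h, and 24.0 and 19.2 FPKM at 96 h. The HMGN1-OE libraries had 8.13 and 1.75 FPKM at 0 h, 4.10 and 2.71 FPKM at 36 h, and 32.0 and 29.2 FPKM at 96 h. The 4 libraries of 96 h all lay above the 8 earlier ones, whereas the earlier groups overlapped.

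Fosb, a Fos relative with a strong activation domain, was low early. It had 0.900 and 1.65 FPKM at 0 h, 2.34 and 1.12 FPKM at 36 h, and 12.6 and 12.4 FPKM at 96 h in wild-type cells. Its HMGN1-OE values were 1.22 and 0.632 FPKM at 0 h, 1.17 and 0.658 FPKM at 36 h, and 19.9 and 14.8 FPKM at 96 h. Its libraries agreed within a factor of 2.09 in every group, and the 96 h libraries again lay above all earlier ones.

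Fosl2 encodes Fra-2, a Fos relative without the strong activation domain. In wild-type cells it had 1.16 and 6.01 FPKM at 0 h, 4.79 and 2.58 FPKM at 36 h, and 8.75 and 7.54 FPKM at 96 h. In HMGN1-OE cells it had 2.67 and 1.97 FPKM at 0 h, 2.02 and 2.17 FPKM at 36 h, and 6.67 and 5.57 FPKM at 96 h. Within each genotype the 96 h libraries lay above the earlier ones, but library b of wild-type cells at 0 h lay between the 2 HMGN1-OE libraries of 96 h.

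Among the Jun family, Jun rose between 0 and 96 h, whereas Junb, the most abundant of the family, was not called in any comparison as deposited. Jun is the strongest activator of the family. It had 2.75 and 14.6 FPKM at 0 h, 16.9 and 7.10 FPKM at 36 h, and 18.7 and 12.1 FPKM at 96 h in wild-type cells, and these groups overlapped. In HMGN1-OE cells Jun had 3.56 and 1.46 FPKM at 0 h, 5.30 and 3.89 FPKM at 36 h, and 17.9 and 16.96 FPKM at 96 h, with no overlap between the times.

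Junb, a weaker activator that can oppose Jun, had 26.1 and 58.6 FPKM at 0 h, 74.7 and 58.4 FPKM at 36 h, and 37.6 and 30.8 FPKM at 96 h in wild-type cells. The Junb values of HMGN1-OE cells were 43.0 and 22.8 FPKM at 0 h, 46.7 and 43.9 FPKM at 36 h, and 36.7 and 51.2 FPKM at 96 h. Its 0 and 96 h libraries overlapped in both genotypes. Jund, the family member least dependent on signals, had 11.97 and 24.2 FPKM at 0 h, 25.9 and 26.9 FPKM at 36 h, and 23.5 and 19.6 FPKM at 96 h in wild-type cells. In HMGN1-OE cells Jund had 16.7 and 8.998 FPKM at 0 h, 12.3 and 11.9 FPKM at 36 h, and 20.8 and 20.4 FPKM at 96 h. The Jund groups of wild-type cells at 0 h overlapped those of 96 h, and those of HMGN1-OE cells did not. The kit keeps no strand, and in GENCODE vM21 opposite-strand exons cover 877 of the 1668 exon bases of Jund (Gm11175), 232 of 3189 of Jun (Junos), 173 of 2301 of Junb (Prdx2), and 11 of 3311 of Dusp1 (Ergic1), so reads of these pairs cannot be told apart there.

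Egr1 varied most within groups. It encodes a zinc finger factor that marks recent MAP kinase signalling. In wild-type cells it had 3.09 and 34.5 FPKM at 0 h, 64.6 and 7.07 FPKM at 36 h, and 17.8 and 15.7 FPKM at 96 h. In HMGN1-OE cells it had 31.3 and 4.36 FPKM at 0 h, 19.1 and 27.6 FPKM at 36 h, and 26.2 and 40.9 FPKM at 96 h. The libraries of one group differed by 11.2 times in wild-type cells at 0 h, by 9.13 times at 36 h, and by 7.19 times in HMGN1-OE cells at 0 h, but by at most 1.56 times in the other 3 groups.

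Ier2 and Ier3 encode small immediate early proteins with roles in adhesion and survival. Ier2 was abundant throughout, whereas Ier3 lay near the median of the tested genes in HMGN1-OE cells at 0 h. Ier2 had 42.0 and 112 FPKM at 0 h, 119 and 91.5 FPKM at 36 h, and 61.6 and 31.6 FPKM at 96 h in wild-type cells. The HMGN1-OE cells had 76.4 and 34.2 FPKM at 0 h, 59.2 and 66.8 FPKM at 36 h, and 67.8 and 87.0 FPKM at 96 h. The 96 h libraries lay below those of 36 h in wild-type and above them in HMGN1-OE cells.

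Ier3 had 16.4 and 41.6 FPKM at 0 h, 62.3 and 31.3 FPKM at 36 h, and 48.8 and 23.2 FPKM at 96 h in wild-type cells, where all times overlapped. The HMGN1-OE values were 22.2 and 13.5 FPKM at 0 h, 32.4 and 25.4 FPKM at 36 h, and 34.1 and 51.1 FPKM at 96 h, in that order without overlap.

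Dusp1 encodes a phosphatase that inactivates MAP kinases and so limits the signal that induces it. It had 3.37 and 6.14 FPKM at 0 h, 8.46 and 6.11 FPKM at 36 h, and 18.5 and 14.8 FPKM at 96 h in wild-type cells. In HMGN1-OE cells it had 5.40 and 2.90 FPKM at 0 h, 4.52 and 4.42 FPKM at 36 h, and 12.98 and 14.6 FPKM at 96 h. As with Fos and Fosb, each library of 96 h lay above each earlier one.

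**Figure D1:**
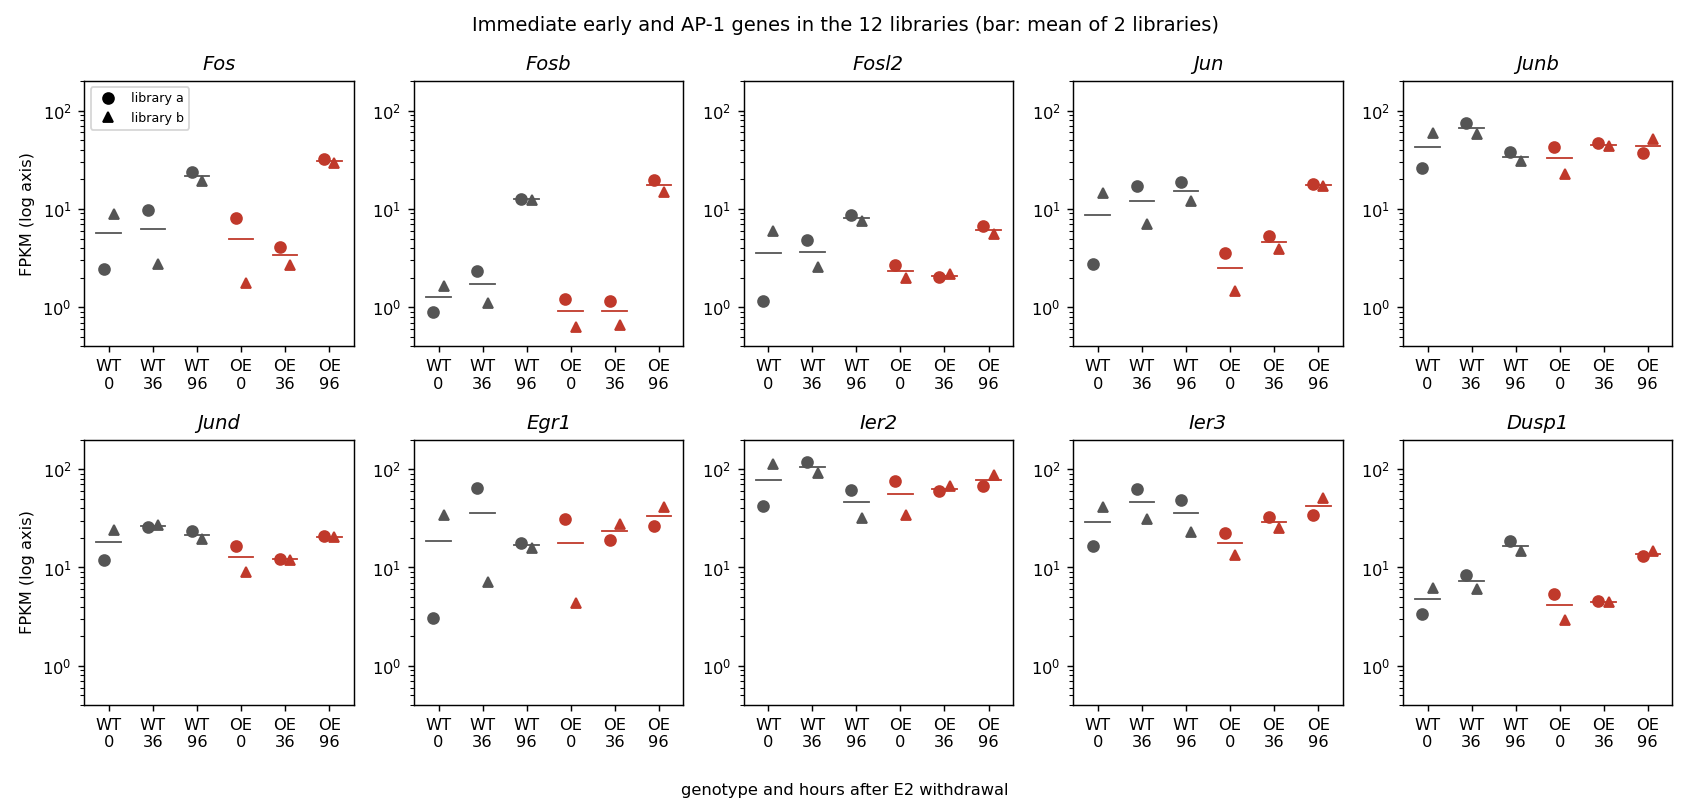
FPKM of the 10 genes (log axis) in wild-type (WT, grey) and HMGN1-OE (OE, red) cells at 0, 36, and 96 h after E2 withdrawal, with a point for each library and a bar for the mean of 2. The 96 h points of Fos, Fosb, and Dusp1 sit above all earlier points, and the Egr1 points of 3 early groups lie far apart.

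Over the whole table, 363 genes (3.15%) had their 4 libraries of 96 h above the 8 earlier ones, and among the 10 members 3 did (Fos, Fosb, and Dusp1). After centring the libraries on their medians, a scale on which the general fall is removed, 9 of 10 did, all except Egr1, beside 33.2% of all genes.

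The change from 0 to 96 h was then tested with limma on log2(FPKM + 1), with Benjamini-Hochberg adjustment over the 11516 genes and a call at an adjusted p under 0.05. An exact permutation test of 2 libraries against 2 cannot go below p = 0.333, and on the deposited scale limma took each gene's variance from a trend over expression, so a p-value there does not reflect how far apart that gene's libraries lay. On the centred scale the variance also used the gene's own libraries. In wild-type cells 5 of 10 members rose and none fell, where 4.31% of all genes rose and 77.2% fell. The largest change was that of Fosb, at 2.59 on the log2 scale (standard error 0.41, limma adjusted p = 1.79e-09). Fos rose by 1.94 (standard error 0.47, limma adjusted p = 8.22e-05) and Dusp1 by 1.65 (standard error 0.46, limma adjusted p = 0.000661). Fosl2 rose by 1.23 (standard error 0.42, limma adjusted p = 0.00481) and Jun by 1.07 (standard error 0.47, limma adjusted p = 0.029). The calls of Fosl2 and Jun were lost without library a of wild-type cells at 0 h, with log2 fold changes of 0.38 and 0.04 and limma adjusted p-values of 0.407 and 0.944. That of Jun was also lost without library a of 96 h (0.77, limma adjusted p = 0.160). Without library a at 0 h Ier2 was called lower (-1.33, limma adjusted p = 0.0458), beside 86.6% of all genes called in either direction. Without library b at 0 h Egr1 was called higher (2.11, limma adjusted p = 0.00317), beside 63.4%. The other 5 members had log2 fold changes between -0.63 and 0.56, and the median over all 10 members was 0.81.

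In HMGN1-OE cells 7 of 10 members rose and none fell, where 5.08% of all genes rose and 62.4% fell. Fosb rose by 3.26 (standard error 0.41, limma adjusted p = 4.26e-14), Fos by 2.65 (standard error 0.47, limma adjusted p = 2.21e-07), and Jun by 2.46 (standard error 0.47, limma adjusted p = 1.48e-06). Dusp1 rose by 1.56 (standard error 0.46, limma adjusted p = 0.00203) and Fosl2 by 1.10 (standard error 0.42, limma adjusted p = 0.0148). Egr1 rose by 1.36 (standard error 0.51, limma adjusted p = 0.0145) and Ier3 by 1.22 (standard error 0.53, limma adjusted p = 0.0337). The Egr1 libraries of 0 and 96 h overlapped, and its value was 0.06 without library b at 0 h (limma adjusted p = 0.935) and 1.05 without library b at 96 h (limma adjusted p = 0.164). The call of Ier3 was lost without any one of its 4 libraries (limma adjusted p between 0.0592 and 0.234). That of Fosl2 was lost without either library of 0 h or library a of 96 h (limma adjusted p = 0.053, 0.101, and 0.126), and that of Dusp1 without library b of 0 h (1.205, limma adjusted p = 0.0636). Junb, Jund, and Ier2, with values between 0.45 and 0.70, were not called.

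**Figure D2:**
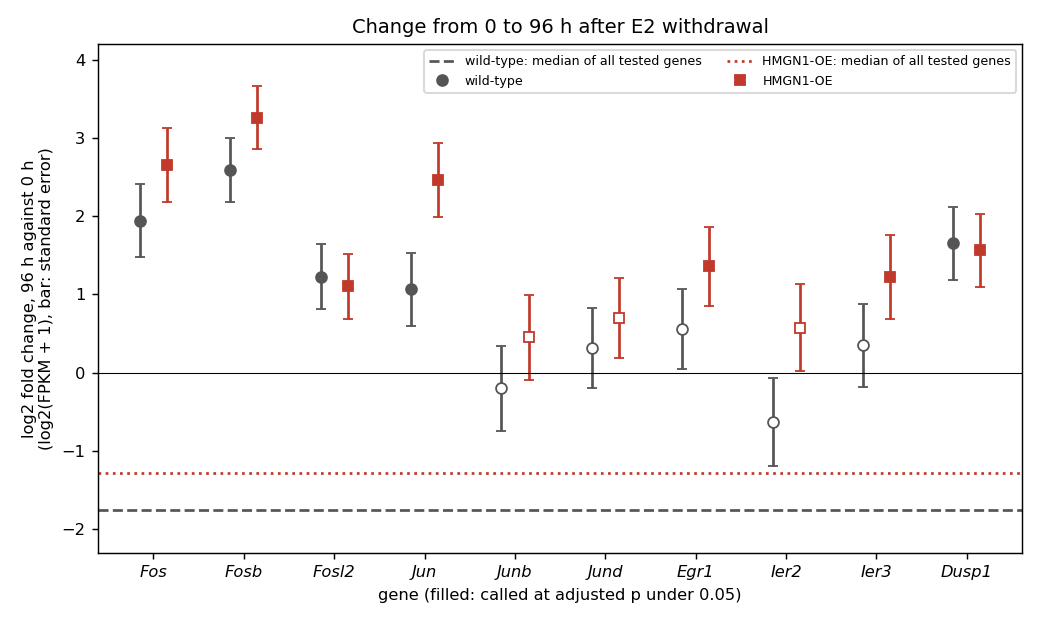
Log2 fold change from 0 to 96 h (bars, standard error) of the 10 genes in wild-type (grey circles) and HMGN1-OE cells (red squares), with filled symbols for calls and lines at the median of all tested genes. The dashed line lies at -1.75 and the dotted line at -1.28, and all values of the members lie above the line of their genotype.

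The split of calls depended on the scale. On the centred scale, 9 of 10 members were called higher at 96 h than at 0 h in each genotype, with a median log2 difference over the 10 of 2.66 (wild-type) and 2.60 (HMGN1-OE). The member not called was Egr1, at 2.40 in wild-type cells (limma adjusted p = 0.0771) and 2.67 in HMGN1-OE cells (limma adjusted p = 0.059). On that scale 36.5% of all genes were called higher and 33.8% lower in wild-type cells, and 30.9% higher and 32.5% lower in HMGN1-OE cells. Junb and Ier2, at -0.20 and -0.63 as deposited in wild-type cells, were thus called higher only relative to the rest of the RNA.

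The time course was then split at 36 h. From 0 to 36 h no member was called in either genotype by limma, and none had an unadjusted p under 0.05, beside 0.617% of all genes called in wild-type cells and 1.8% in the HMGN1-OE ones. From 36 to 96 h in wild-type cells, 4 members rose and 1 fell, where 3.15% of all genes rose and 86.3% fell. Fosb rose by 2.34 (standard error 0.41, limma adjusted p = 2.69e-08), Fos by 1.82 (standard error 0.47, limma adjusted p = 0.000164), Dusp1 by 1.10 (standard error 0.46, limma adjusted p = 0.0205), and Fosl2 by 1.005 (standard error 0.42, limma adjusted p = 0.0186). Ier2 changed by -1.22 (standard error 0.56, limma adjusted p = 0.0321), and by 1.10 with centred libraries.

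Without library b of 36 h, whose progenitor markers stood apart, only Fosb of these 5 was still called (2.02, limma adjusted p = 0.000183). Fos was then at 1.07 (limma adjusted p = 0.0929), Dusp1 at 0.89 (0.149), Fosl2 at 0.66 (0.224), and Ier2 at -1.41 (0.069), and Egr1 was called lower at 96 h (-1.89, limma adjusted p = 0.0079), where 82.2% of all genes were called in either direction. Without library a of 96 h Dusp1 and Fosl2 were not called (limma adjusted p = 0.0734 and 0.0635). Ier2 was not called without library a of 36 h or library b of 96 h either (limma adjusted p = 0.179 and 0.196). In the same way, Egr1 was called higher at 36 h than at 0 h in wild-type cells without library b of 0 h (2.49, limma adjusted p = 0.0225) or without library b of 36 h (2.44, limma adjusted p = 0.0197), beside 1.09% and 1.86% of all genes called.

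From 36 to 96 h in HMGN1-OE cells 5 members rose, where 4.02% of all genes rose and 64.9% fell. Fosb rose by 3.26 (standard error 0.41, limma adjusted p = 6.85e-14), Fos by 2.86 (standard error 0.47, limma adjusted p = 2.82e-08), and Jun by 1.73 (standard error 0.47, limma adjusted p = 0.000735). Dusp1 rose by 1.43 (standard error 0.46, limma adjusted p = 0.00448) and Fosl2 by 1.198 (standard error 0.42, limma adjusted p = 0.00811). Dusp1 was not called without library a or library b of 36 h (limma adjusted p = 0.0515 and 0.0508). Fosl2 was not called without library a or b of 36 h or library a of 96 h (limma adjusted p = 0.0778, 0.0563, and 0.094). The comparisons of 96 h with 0 h and with 36 h share their 96 h libraries.

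The balance of the AP-1 families moved with these changes. Summed FPKM of Fos, Fosb, and Fosl2 was between 0.0701 and 0.190 times that of Jun, Junb, and Jund in the 8 libraries of 0 and 36 h, and between 0.560 and 0.778 times in the 4 libraries of 96 h. Junb made up 60.2% to 73.6% of the Jun family early and 47.1% to 57.8% at 96 h, while Jun went from 4.39% to 14.98% early to 19.2% to 23.8% at 96 h. The share of Jund overlapped, with 19.1% to 29.3% early and 23.0% to 31.5% at 96 h.

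Within the Fos family, Fosb was 9.95% to 19.9% early and 27.8% to 34.0% at 96 h, and Fosl2 was 22.2% to 45.2% early and 11.2% to 19.3% at 96 h. The share of Fos itself overlapped (40.3% to 67.6% and 49.2% to 58.9%). The fourth family member, Fosl1, is not in these sums and had 0.390 to 1.60 FPKM early and 1.63 to 3.39 FPKM at 96 h. Though low, it was called higher from 0 to 96 h in both genotypes, beside 4.31% and 5.08% of all genes. These ratios are formed within a library, so a single factor that scales all its genes cancels. A correction that varies with expression level, as the loess fit on the ERCC RNAs can, does not cancel. They are transcript ratios with no test. The genotypes overlapped in the ratio of the families at each time.

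**Figure D3:**
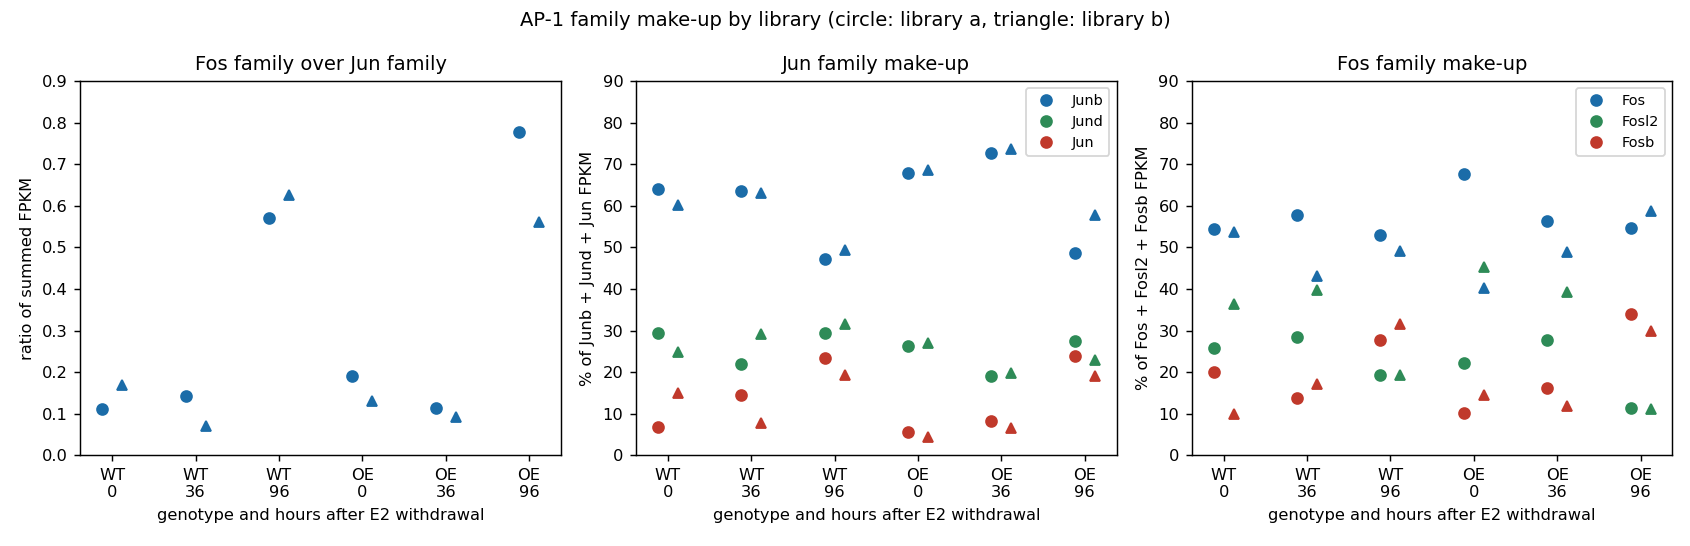
Ratio of summed Fos family to summed Jun family FPKM (left) and the percentage of each family's FPKM from each gene (middle and right), by library, in wild-type (WT) and HMGN1-OE (OE) cells at 0, 36, and 96 h. The ratio is at most 0.190 in the early libraries and at least 0.560 at 96 h, and the shares of Jun and Fosb are higher at 96 h in all 4 libraries.

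HMGN1 overexpression was compared with wild type at each time. No member was called at any of them, beside 1.36% of all genes at 0 h, 1.26% at 36 h, and 0.669% at 96 h. At an unadjusted p under 0.05 there were 1, 2, and 0 members, and 457, 593, and 314 of all 11516 genes. The member medians were -0.28, -0.57, and 0.32 on the log2 scale, beside all-gene medians of -0.12, -0.54, and 0.36. At 36 h 6 members lay lower in both HMGN1-OE libraries than in both wild-type ones, as did 84.4% of all genes. At 96 h Fos, Fosb, Egr1, and Ier2 lay higher in both HMGN1-OE libraries and Fosl2 and Dusp1 lower, beside 10.2% and 2.97% of all genes. With centred libraries Ier2 lay higher and Fosl2 and Dusp1 lower at 96 h, beside 21.7% and 22.6% of all genes. On that scale Jun, Jund, and Ier3 lay lower at 0 h, beside 17.9% of all genes, and Jund alone at 36 h, beside 9.49%.

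Jun was singled out after its values were seen, as the member with the lowest genotype difference. Its 95% intervals take their width from the trend over all genes. They do not reflect its own libraries, whose pooled within-group SD was 0.75 beside a median of 0.44 for all genes. At 0 h its difference was -1.19 (95% interval -2.11 to -0.27, unadjusted p = 0.0109, limma adjusted p = 0.448), although the wild-type library at 2.75 FPKM lay between the HMGN1-OE libraries as deposited. After centring, the genotypes did not overlap at 0 h and HMGN1-OE cells were lower. At 36 h it was -1.12 (95% interval -2.04 to -0.20, limma adjusted p = 0.496) and at 96 h 0.20 (95% interval -0.71 to 1.12, limma adjusted p = 0.885). Without that wild-type library (a of 0 h) Jun was called at -2.22 (limma adjusted p = 0.00289, beside 2.41% of all genes called). Its difference in the change from 0 to 96 h between genotypes, 1.39 (95% interval 0.10 to 2.69, limma adjusted p = 0.810), then became 2.42 (limma adjusted p = 0.0374, beside 1.18% of all genes called). Without library b of wild-type cells at 36 h no member was called at that time, and Jun was at -1.69 (limma adjusted p = 0.187).

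No member was called for a difference in its time course between genotypes, from 0 to 36 h, from 0 to 96 h, or from 36 to 96 h, by limma, beside 0.504%, 0.677%, and 0.547% of all genes called. At an unadjusted p under 0.05 there were 0, 1, and 1 members, and 220, 334, and 520 of all genes. Without library b of wild-type cells at 36 h, no member was called in the 2 that used it, with Egr1 at -1.58 from 0 to 36 h and 2.38 from 36 to 96 h (limma adjusted p = 0.998 and 0.400). From 0 to 96 h the differences ranged from -0.13 to 1.39, with a median of 0.69 beside 0.51 for all genes. The larger number of calls in HMGN1-OE cells is thus not shown to be a difference between genotypes.

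The libraries of one group also differed, and in 4 of the 6 groups 8 or more of the 10 members differed in the same direction after centring. The pooled within-group SD of Egr1 was 1.48 on the log2 scale, rank 86 of the 11516 genes, whose median was 0.44. With centred libraries it was 1.33, and 0.834% of genes were more spread. Fos had 0.81, Jun 0.75, and Fosl2 0.54, whereas Fosb (0.31) and Dusp1 (0.33) were under the median of all genes as deposited. On the centred scale they were above it, at 0.455 and 0.288 beside a median of 0.161.

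In wild-type cells at 36 h all 10 members were higher in library a than in b after centring, by a median of 0.95 and by 3.30 for Egr1. In wild-type cells at 0 h 8 of 10 were higher in library b, by 2.25 for Egr1, and the exceptions were Fosb and Dusp1. In HMGN1-OE cells at 0 h 8 of 10 were higher in library a, by 2.07 for Egr1 and 1.21 for Fos. At 96 h in wild-type cells 9 of 10 were higher in library b after centring, with a median difference of 0.67 in size, whereas all 10 were higher in library a as deposited. In HMGN1-OE cells 4 of 10 were higher in library a at 36 h and 6 of 10 at 96 h. Members share their library, so these counts are not independent.

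Some monocyte and macrophage markers differed between the wild-type libraries in the direction of the members. Their sum (12 genes, 9 of them tested) was 172 and 1020 FPKM at 0 h, and 2382 and 457 FPKM at 36 h, so that it was higher in library b and then in library a, as the members were. Most of it was Ly6c2, with 92.3 and 846 FPKM at 0 h and 2179 and 275 FPKM at 36 h, and Ccr2 had 3.60 and 35.7 FPKM and then 38.3 and 7.32 FPKM. Emr1 did not follow, with 47.6 and 55.4 FPKM at 0 h and 59.6 and 102 FPKM at 36 h. The defining markers Cx3cr1 and Fn1 did not pass the filter. In HMGN1-OE cells at 0 h the sum was 180 and 72.9 FPKM, mostly Emr1 (119 and 37.7 FPKM), and Ly6c2 was 10.9 and 8.43 FPKM. At 96 h in wild-type cells it was 761 and 435 FPKM. These sums are as deposited, a scale on which all 10 members were also higher in library a there. The summed eosinophil, basophil, and mast cell markers (11 genes, 9 tested) were 2998 and 901 FPKM in the wild-type libraries of 36 h, and 437 and 757 FPKM at 0 h. The part of other cell types in the members' spread was not tested.

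The same lists and the 18 neutrophil markers bear on the late libraries. From 0 to 96 h 4.31% of all genes were called higher and 77.2% lower in wild-type cells, and 5.08% and 62.4% in HMGN1-OE cells. Beside these shares, 11 neutrophil markers were called higher and 6 lower (S100a9 among them) in wild-type cells, and 14 and 3 in HMGN1-OE cells. The monocyte sum was 72.9 to 2382 FPKM at 0 and 36 h and 435 to 1359 FPKM at 96 h, and Csf1r, the receptor of macrophage growth factor, was 0.275 to 3.62 FPKM early and 7.17 to 13.5 FPKM at 96 h. Beside the same shares, 3 monocyte markers were called higher from 0 to 96 h (Cd74, Csf1r, and Mrc1) and 1 lower (Emr1) in wild-type cells. In HMGN1-OE cells 5 were called higher and 2 lower. The eosinophil, basophil, and mast cell sum overlapped, with 437 to 2998 FPKM early and 319 to 2533 FPKM at 96 h. In that list Prg2, an eosinophil granule gene, had 1.99 to 49.2 FPKM early and 186 to 1970 FPKM late. From 0 to 96 h 4 genes of it were called higher (Epx, Fcer1a, Gata1, and Prg2) and 2 lower (Cpa3 and Gata2) in wild-type cells. In HMGN1-OE cells 3 were called higher and 2 lower, again beside the shares of all genes given above. Erythroid markers (6 genes, 2 tested) summed to 3.40 to 40.8 FPKM early and 1.10 to 7.44 FPKM late, and lymphoid markers (7 genes, 2 tested) to 14.7 to 77.2 FPKM and 3.23 to 13.7 FPKM.

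**Figure D4:**
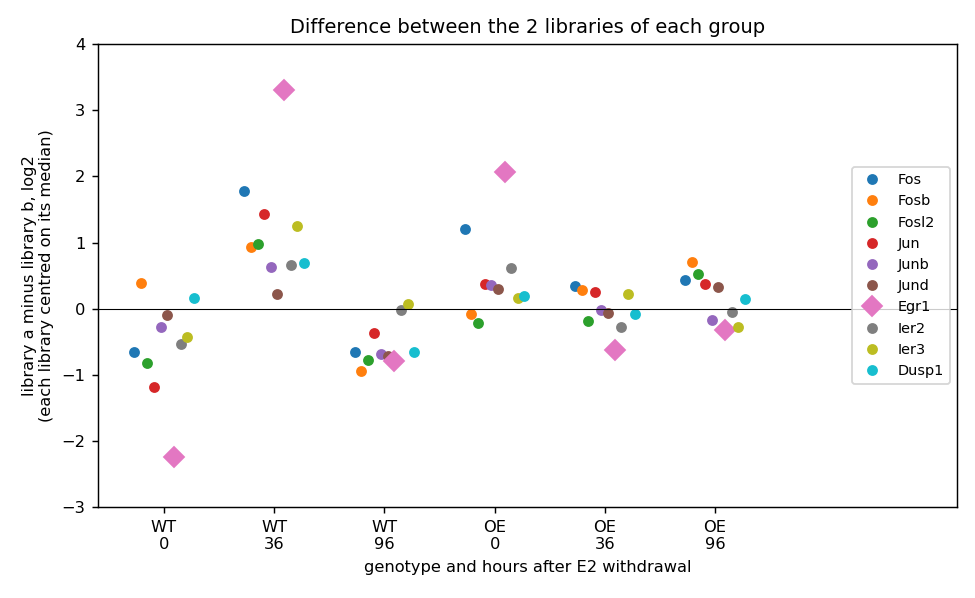
Difference between library a and library b of each group for the 10 genes, on the log2 scale with each library centred on its median, in wild-type (WT) and HMGN1-OE (OE) cells at 0, 36, and 96 h (diamonds, Egr1). At 36 h in wild-type cells all 10 points lie above 0, and Egr1 is at 3.30.

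Across the 12 libraries, centred on their medians, members were correlated with Pearson's r from 0.72 (Jund and Egr1) to 0.99 (Fosb and Dusp1). As deposited, r ran from -0.039 (Fosb and Ier2) to 0.94 (Fos and Fosb). The libraries share the step between the early times and 96 h, and r is given as a description. The genes nearest to Fos by this measure that are no members were Ap5b1, Ppp1r18, Mafg, Arl8a, and Gpr108, each with r = 0.99 over the 12 libraries. As deposited, none of these 5 had its 96 h libraries above all earlier ones. Fosb ranked 31, Dusp1 140, Fosl2 235, and Egr1 3190 of the tested genes in likeness to Fos, with Fos itself counted first.

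Other genes of the pathway were read from fixed lists. Of 33 tested other immediate early genes (41 in the table), 15 rose and 3 fell from 0 to 96 h in wild-type cells, and 12 rose and 2 fell in HMGN1-OE cells, with medians of 0.70 and 0.76. Of all genes 4.31% and 5.08% rose, and the medians were -1.75 and -1.28. With centred libraries 30 were called higher and 1 lower in wild-type cells, and 29 and 0 in HMGN1-OE cells. Of all genes 36.5% were then called higher and 33.8% lower in wild-type cells, and 30.9% and 32.5% in HMGN1-OE cells. Egr2, Egr3, Nr4a1, Btg2, Zfp36, Nfkbia, and Tnfaip3 were among those that rose in both genotypes. The 3 with the largest change were Id2, an inhibitor of basic helix-loop-helix factors (4.45, standard error 0.49, limma adjusted p = 4.39e-18), Klf2, a zinc finger factor of quiescent leukocytes (2.17, standard error 0.46, limma adjusted p = 7.8e-06), and Srf (-2.13, standard error 0.53, limma adjusted p = 0.000111). Srf binds the serum response element of many immediate early promoters, and its level was 28.8 and 51.3 FPKM at 0 h and 12.3 and 5.07 FPKM at 96 h in wild-type cells.

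Of 17 tested other bZIP genes of the AP-1, ATF, and CREB families (21 in the table), 3 rose (Atf3, Batf3, and Fosl1) and 9 fell in wild-type cells, and the same 3 rose and 5 fell in HMGN1-OE cells, again beside 77.2% and 62.4% of all genes that fell. Atf3, a stress-induced AP-1 partner, rose by 2.08 (standard error 0.35, limma adjusted p = 1.67e-08), from 0.240 and 1.07 FPKM to 4.31 and 7.67 FPKM. Creb1 changed by -2.29 and Atf4 by -2.04 (limma adjusted p = 1.43e-05 and 0.00115). With centred libraries 11 of the 17 were called higher and 1 lower in wild-type cells, and 10 and 1 in HMGN1-OE cells, beside 36.5% and 33.8% of all genes and then 30.9% and 32.5%.

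As deposited, Dusp1 differed in direction from the calls among its relatives. Of 14 tested MAP kinase phosphatases and Sprouty family genes (16 in the table) none rose and 9 fell in wild-type cells, and none rose and 8 fell in HMGN1-OE cells, by limma, shares of the list near or below the 77.2% and 62.4% of all genes that fell. The others were not called. None with a positive change had an unadjusted p under 0.05. Dusp2, a phosphatase of activated leukocytes, changed by -3.67, Spry1 by -2.82, and Spred1 by -2.80 in wild-type cells (limma adjusted p = 1.4e-11, 2.37e-09, and 3.47e-08). With centred libraries 8 were called higher and 5 lower in wild-type cells, and 3 higher and 4 lower in HMGN1-OE cells. Beside them, 36.5% of all genes were called higher and 33.8% lower in wild-type cells, and 30.9% and 32.5% in HMGN1-OE cells.

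Of 23 tested MAP kinases and ternary complex factors (26 in the table) 1 rose and 14 fell in wild-type cells, where 77.2% of all genes fell. In HMGN1-OE cells 1 rose and 8 fell, where 62.4% of all genes fell. The one that rose was Mapk13, which encodes p38 delta (3.00, standard error 0.45, limma adjusted p = 3.04e-10). Map2k6, an activator of p38, changed by -2.57 (limma adjusted p = 1.8e-08). With centred libraries 14 were called higher and 5 lower in each genotype. The centred shares of all genes were 36.5% higher and 33.8% lower in wild-type cells, and 30.9% and 32.5% in HMGN1-OE cells. The heat shock genes, as a list, did not share the members' direction. All 11 tested (12 in the table) fell in wild-type cells and 9 in HMGN1-OE cells, where 77.2% and 62.4% of all genes fell. The list medians were -3.57 and -2.48, beside -1.75 and -1.28 for all genes. With centred libraries 7 fell and 1 (Dnajb1) rose in each genotype, beside the centred shares just given. Hspe1, a mitochondrial chaperonin, went from 351 and 602 FPKM at 0 h to 17.1 and 6.74 FPKM at 96 h in wild-type cells. No gene of these 5 lists was called between the genotypes at any time, nor at 36 h without library b of wild-type cells (lowest limma adjusted p = 0.497).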

How the data were processed

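PolyA RNA from TRIzol extracts was prepared with an unstranded TruSeq kit. The deposited values are FPKM, which the authors normalized by loess on ERCC spike-in RNAs. The submitters' processing notes name HISAT, Cufflinks 2.0.0, and mm9, whereas the study's methods name Bowtie and RPKM. Depth is unknown, and genes without signal are listed near 0.1 rather than at 0.

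FPKM was analysed as log2(FPKM + 1), which understates changes of low genes. Genes reaching 1 FPKM in 2 or more of the 12 libraries (11516) were fitted with limma 3.58.1 (R 4.3.3; trend over expression, 6 group means, two-sided, 12 comparisons) and tested on simulated data first. The 2 libraries of a group are biological replicates, and the variance behind each p-value came from the trend over all genes as deposited, and from the trend and the gene's own spread with centred libraries (prior degrees of freedom 2.87, residual 6). Members and gene lists were chosen with earlier results of these data known. All 10 members are given with their values, with fold changes where called, and of each list the calls and the 3 genes with the largest called change from 0 to 96 h in wild-type cells, except 1 gene that is not reported here. Jun between genotypes and the spread of Egr1 were singled out after their values were seen. Promoters came from RefSeq (GRCm38.p6) and exon overlaps from GENCODE vM21, both of another build than the files, so only names were joined. Pseudocounts, filters, scaling, and left-out libraries were varied.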

Additional observations from a re-analysis of the deposited data

How the results depend on the processing

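No genotype comparison or interaction gave a called member under the alternatives that left out no replicate of the groups compared. The counts between times moved. From 0 to 96 h in wild-type cells 5 members were called, but 2 without a filter on low values, 9 with centred libraries, 9 with quantile normalization, 1 with only the groups compared, and 2 without moderation, where 2.72%, 36.5%, 32.7%, 2.89%, and 3.6% of all genes were called higher. From 36 to 96 h in wild-type cells the 5 became 2, 9, 9, 2, and 2 under the same settings, beside 2.14%, 38.2%, 31.9%, 2.65%, and 2.72% of all genes called higher. In HMGN1-OE cells the 7 from 0 to 96 h became 4 without the filter and 4 without moderation (2.72% and 3.93% of all genes higher), and the 5 from 36 to 96 h became 3, 9 (centred), 9 (quantile), and 3 (2.23%, 28.6%, 28.7%, and 3.13%). With centred libraries 9 members instead of 3 had all 96 h libraries on top, and 3 to 4 when 1 library was left out. The cause of these moves was not tested.

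Leaving out 1 library also moved the calls between times in both genotypes, as given for single members above. The share of all genes called moved too, so counts of members are not compared across these fits. Such fits also called Egr1 from 0 to 36 h in wild-type cells. They called Jun between genotypes at 0 h and for the interaction from 0 to 96 h. A group left with 1 library was assumed to vary like the others.

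Of 216 values of called members under other settings, 179 kept their call and direction, 35 lost the call, and 2 reversed. Both were Ier2 from 36 to 96 h in wild-type cells, at 1.10 centred and 1.38 after quantile normalization. Of 88 values with 1 library left out, 62 kept the call and 26 lost it. Fosb kept all its calls. From 0 to 96 h in wild-type cells Fos kept its call under 7 of 10 alternatives and Dusp1 under 9 of 10. That of Fos was lost without the filter, with only the groups compared, and without moderation, and that of Dusp1 with only the groups compared. Egr1 in HMGN1-OE cells lost its call from 0 to 96 h under 6 of 10 alternatives (adjusted p between 0.00428 and 0.600 over all). The alternative with a mean of at least 5 FPKM leaves out Fosl2. No paired analysis was possible because the columns carry no replicate number of the labels. With 2 libraries a group, genotype differences as large as the intervals of Jun allow were not resolved. Those intervals take their width from the trend over all genes and not from the libraries of Jun.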
